A study of Mus musculus with 29 samples.

Results

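Aminoacyl-tRNA synthetases are the enzymes that join each amino acid to its transfer RNA. The 38 genes described here are 20 synthetases that work in the cytosol (Aars, Cars, Dars, Eprs, Farsa, Farsb, Gars, Hars, Iars, Kars, Lars, Mars, Nars, Qars, Rars, Sars, Tars, Vars, Wars and Yars), 17 mitochondrial synthetases, whose symbols end in 2, and Xpot, which encodes exportin-t, the carrier of transfer RNA out of the nucleus. They were chosen by gene symbol from the 22327 genes of the deposited count table. All 38 were found, and all 38 were among the 16074 genes that passed the filter on low counts.

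The data are 29 libraries of ribosome-bound polyA RNA (translating ribosome affinity purification, TRAP) from the cortex of mice aged 6 months, in 7 groups. In every mouse, Cx3cr1CreErt2/+, a tamoxifen-dependent recombinase read from the Cx3cr1 locus, switched on an eGFP tag on ribosomal protein L10a in cells that express Cx3cr1, of which microglia are the main kind in brain tissue. All mice received 6 doses of 100 mg/kg tamoxifen. The 5xFAD iPKR group (n = 4) carried the 5xFAD transgenes, which cause amyloid deposition, and an NS3.eGFPL10a.iPKR construct at the Eef1a1 locus, and received VEGF (1 µg/kg) and ASV (5 mg/kg) over 4 weeks. The iPKR ASV group (n = 5) carried the same construct without 5xFAD and had the same VEGF and ASV treatment, and the iPKR vehicle group (n = 4) received VEGF and the solvent alone. The 5xFAD Eif2A group (n = 3) carried 5xFAD and Eif2s1A/A with a Tg(Eif2s1) transgene, and the Eif2A group (n = 4) carried the same Eif2s1 alleles without 5xFAD. The 5xFAD TRAP group (n = 4) carried 5xFAD and the tag and was given VEGF and ASV as above. The TRAP group (n = 5) carried the tag alone. The labels give neither VEGF nor ASV for the TRAP, Eif2A and 5xFAD Eif2A groups, so the 5xFAD transgenes and the drugs cannot be told apart in 5xFAD TRAP against TRAP, nor the iPKR construct and VEGF in iPKR vehicle against TRAP, nor the Eif2s1 alleles and the absence of the drugs in 5xFAD Eif2A against 5xFAD TRAP.

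iPKR is an inducible form of PKR, a kinase that phosphorylates eIF2α, the product of Eif2s1, and the A allele codes for a form that cannot be phosphorylated at the regulatory serine. Phosphorylated eIF2α lowers general translation and lets the transcription factor ATF4 be made, which is the core of the integrated stress response. ATF4 is known to switch on genes of amino acid uptake and synthesis together with many cytosolic synthetases. The products of Gars and Kars serve both the cytosol and the mitochondria.

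ATF4 binds DNA with C/EBP partners at composite elements that contain TGATGCAA. RefSeq promoter windows (around the annotated start, GRCm38.p6) were matched for 28 of the 38 genes and searched for TGATGCAA on both strands. The motif was in 4 of the 8 matched genes on a list of 12 cytosolic synthetases taken from prior knowledge as linked to ATF4 (Aars, Cars, Eprs, Gars, Iars, Lars, Mars, Nars, Sars, Tars, Wars and Yars), in 0 of the 5 other cytosolic genes, in 0 of the 14 mitochondrial genes and not in Xpot. Of all 27025 genes with a promoter window, 1.03% held it in at least 1 window. Of the 4 matches 3 are shown, with another, in Gars, to the looser TGATGNAA, which was in 5 of the 8 and in 4.51% of all these genes and includes every TGATGCAA. Each is written 5′ to 3′ on the gene's strand with the motif, or its reverse complement, in capitals.
Yars, chr4:129189895-129189924 (+): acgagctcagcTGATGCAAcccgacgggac
Iars, chr13:49682126-49682155 (+): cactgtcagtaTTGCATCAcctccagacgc
Tars, chr15:11399655-11399684 (-): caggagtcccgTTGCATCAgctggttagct
Gars, chr6:55037960-55037989 (+): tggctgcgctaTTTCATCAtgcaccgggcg
A match describes these letters only. The list came from knowledge of ATF4 targets and was chosen with earlier results of these data known, so the count is not independent of either.

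Library totals ran from 1.662 to 31.998 M counts. The 16 homeostatic microglial markers made up 2.88 to 4.29% of counts in the 16 libraries without iPKR but 0.065 to 1.38% in the 13 iPKR libraries. Among the iPKR libraries 3, all of batch 1, stood apart from the rest: iPKR ASV 3 and 5xFAD iPKR 1 and 2 had 2.35 to 3.71% of counts in 11 neuron markers, while the iPKR vehicle libraries had 0.737 to 0.821% and the libraries of the Eif2A and TRAP groups 0.088 to 0.130%. Libraries 1 and 2 of 5xFAD TRAP, also of batch 1, had 0.424 and 0.246%, above the 0.103 and 0.112% of libraries 3 and 4. No neuron or microglial marker used was at 0 in every library of a group. Eif2s1 averaged 145 ± 11.02 CPM (counts scaled to library size with TMM factors) in Eif2A and 129 ± 8.68 CPM in TRAP (SD, n = 4 and 5); a count of the whole gene cannot show the A allele.

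The 2 sets differed in level in every library. The cytosolic set, taken as the mean of its 20 log2 CPM values, averaged 6.47 ± 0.91 in 5xFAD iPKR (SD, n = 4), 6.18 ± 0.72 in iPKR ASV (n = 5) and 5.68 ± 0.10 in iPKR vehicle (n = 4). It averaged 6.59 ± 0.16 in 5xFAD Eif2A (n = 3) and 6.33 ± 0.11 in Eif2A (n = 4), and 6.55 ± 0.30 in 5xFAD TRAP (n = 4) and 6.36 ± 0.12 in TRAP (n = 5). The iPKR vehicle libraries were the lowest as a group, and the widest spreads were in the 2 groups that hold the neuron-rich libraries. In bulk RNA of this kind, fewer cells of a type and less RNA per cell cannot be told apart.

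**Figure D1:**
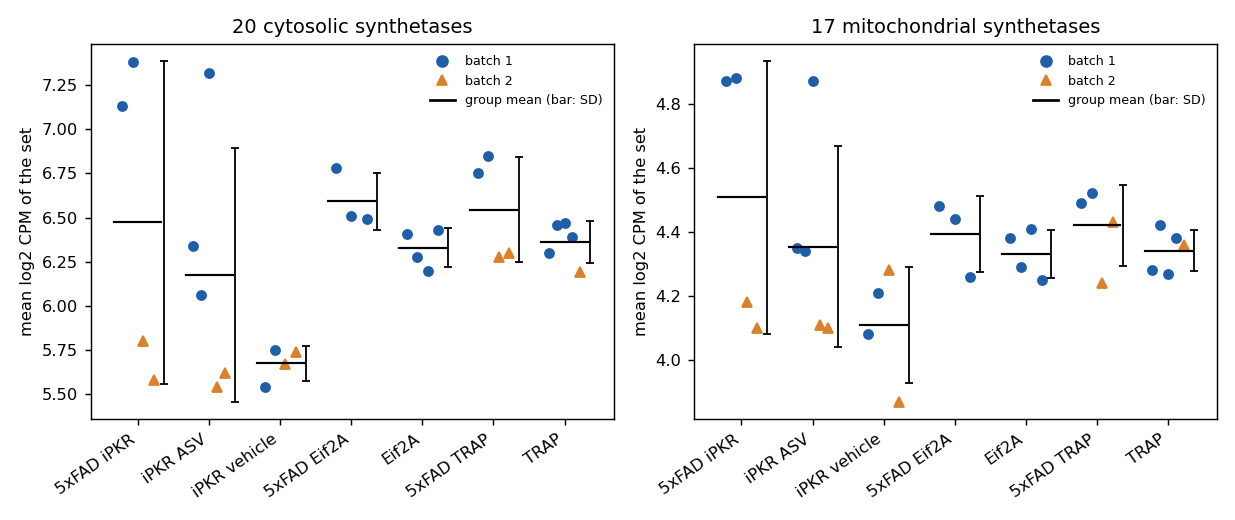
Mean log2 CPM of the 20 cytosolic and of the 17 mitochondrial synthetases in each of the 29 libraries, by group; circles are batch 1, triangles batch 2, the line is the group mean and the bar beside it ±1 SD. The 4 iPKR vehicle libraries lie between 5.54 and 5.75 in the cytosolic set, against 6.19 to 6.47 in TRAP, and 3 libraries of the iPKR ASV and 5xFAD iPKR groups lie above 7.

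The mitochondrial set averaged 4.51 ± 0.43 in 5xFAD iPKR, 4.35 ± 0.31 in iPKR ASV and 4.11 ± 0.18 in iPKR vehicle. Its mean was 4.39 ± 0.12 in 5xFAD Eif2A and 4.33 ± 0.08 in Eif2A, and 4.42 ± 0.13 in 5xFAD TRAP and 4.34 ± 0.06 in TRAP. The 7 means therefore covered a narrower range than those of the cytosolic set. The cytosolic set exceeded the mitochondrial set by 1.56 ± 0.22 in iPKR vehicle and by 2.02 ± 0.13 in TRAP on the log2 scale, and by 2.2 ± 0.12 in 5xFAD Eif2A and 2.00 ± 0.16 in Eif2A.

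Per kilobase of the principal transcript, the gene with the highest mean level in TRAP was a mitochondrial one, Lars2 (leucyl-tRNA synthetase), at 214 ± 129.7 CPM per kb (SD, n = 5). Nars (asparaginyl) followed at 174 ± 22.6 and Dars (aspartyl) at 62.1 ± 8.92 CPM per kb. The first place of Lars2 rested on the single batch 2 library, where it had 1707 CPM, against 429 to 742 CPM in the batch 1 libraries. In each batch 1 library of TRAP, Nars was the higher of these genes per kb. The next mitochondrial gene, Tars2 (threonyl), had 16.3 ± 2.38 CPM per kb, and Mars2 (methionyl) had the lowest level of the 38, at 0.62 ± 0.22. Xpot had 17.8 ± 2.36 CPM per kb. Across the 29 libraries the cytosolic genes varied together more than the mitochondrial ones: the median pairwise Pearson r of log2 CPM was 0.658 over 190 cytosolic pairs, 0.116 over 136 mitochondrial pairs and 0.323 over 340 mixed pairs. These r values share the libraries and their depth and are a description only. They include the neuron-rich libraries, and the mitochondrial genes were on average at lower levels. The part of either in the r values was not tested.

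Among the iPKR libraries, and among those of 5xFAD TRAP, the level of the cytosolic set was higher where neuron markers were. The 3 neuron-rich libraries had set means of 7.32, 7.38 and 7.13, while the other iPKR libraries had 5.54 to 6.34. In 5xFAD TRAP, libraries 1 and 2 had 6.75 and 6.85 and libraries 3 and 4 had 6.28 and 6.30. Between groups this was not so: the 5xFAD Eif2A libraries, with the lowest neuron marker shares (0.060 to 0.090%), had set means of 6.49 to 6.78, and the iPKR vehicle libraries, with 0.737 to 0.821%, had 5.54 to 5.75. The batches, which the model includes, differed too: in a fit without 5xFAD Eif2A 18 of the 38 genes were called between them, where 16.5% of all genes were, among them 15 cytosolic genes lower in batch 2. Without the neuron-rich libraries, all of batch 1, the calls were Gars, lower in batch 2, and Lars2, higher in it, where 2.19% of all genes were called. The part of neuronal RNA in the comparisons was not tested. Counts, medians or both are also given without the 3 libraries where the comparison draws on them or its calls changed.

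**Figure D2:**
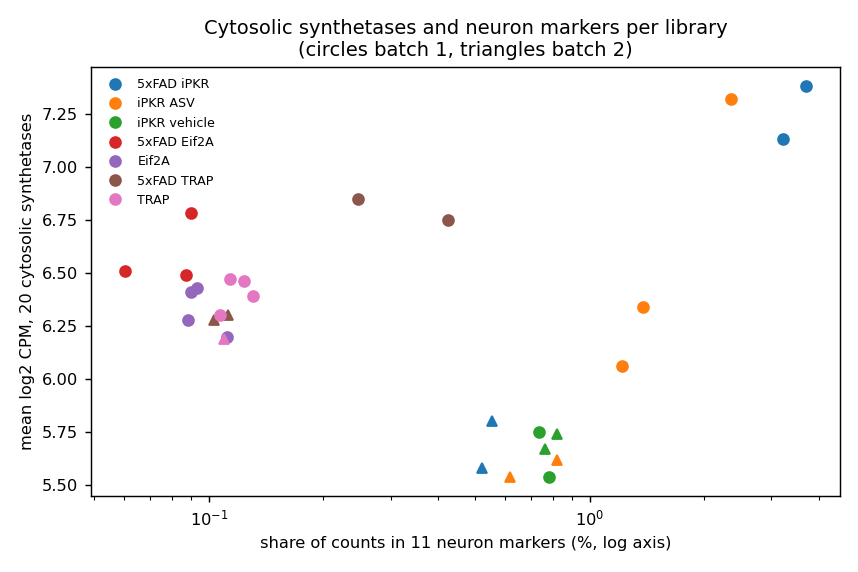
Percent of counts in 11 neuron markers (log axis) against the mean log2 CPM of the cytosolic set in each library, coloured by group; circles are batch 1 and triangles batch 2. The 3 iPKR libraries with 2.35 to 3.71% of counts in neuron markers also have the highest cytosolic means, 7.13 to 7.38.

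The effect of 5xFAD was compared on 3 backgrounds. In 5xFAD TRAP against TRAP all 20 cytosolic synthetases had positive fold changes, with a median of 0.47 on the log2 scale, against 0.15 for the mitochondrial set and -0.06 for all genes tested. None of the 38 passed edgeR's quasi-likelihood test at an adjusted p of 0.05, where 0.79% of all genes did. At an unadjusted p below 0.05 there were 5 cytosolic genes and 0 mitochondrial ones, where 10.2% of all genes were, so the members' share was near that background. DESeq2 called 0 of the 38 and 2.11% of all genes. With batch 1 alone 19 of the 20 cytosolic fold changes were positive. Batch 2 holds 1 TRAP library. Without the 3 neuron-rich libraries not all 20 were positive: of Dars, Eprs, Iars, Kars, Lars, Mars, Qars and Rars, 7 of 8 were. The mean CPM over all libraries was higher in 5xFAD TRAP for 17 of the 20, and lower for Lars, Nars and Tars.

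**Figure D3:**
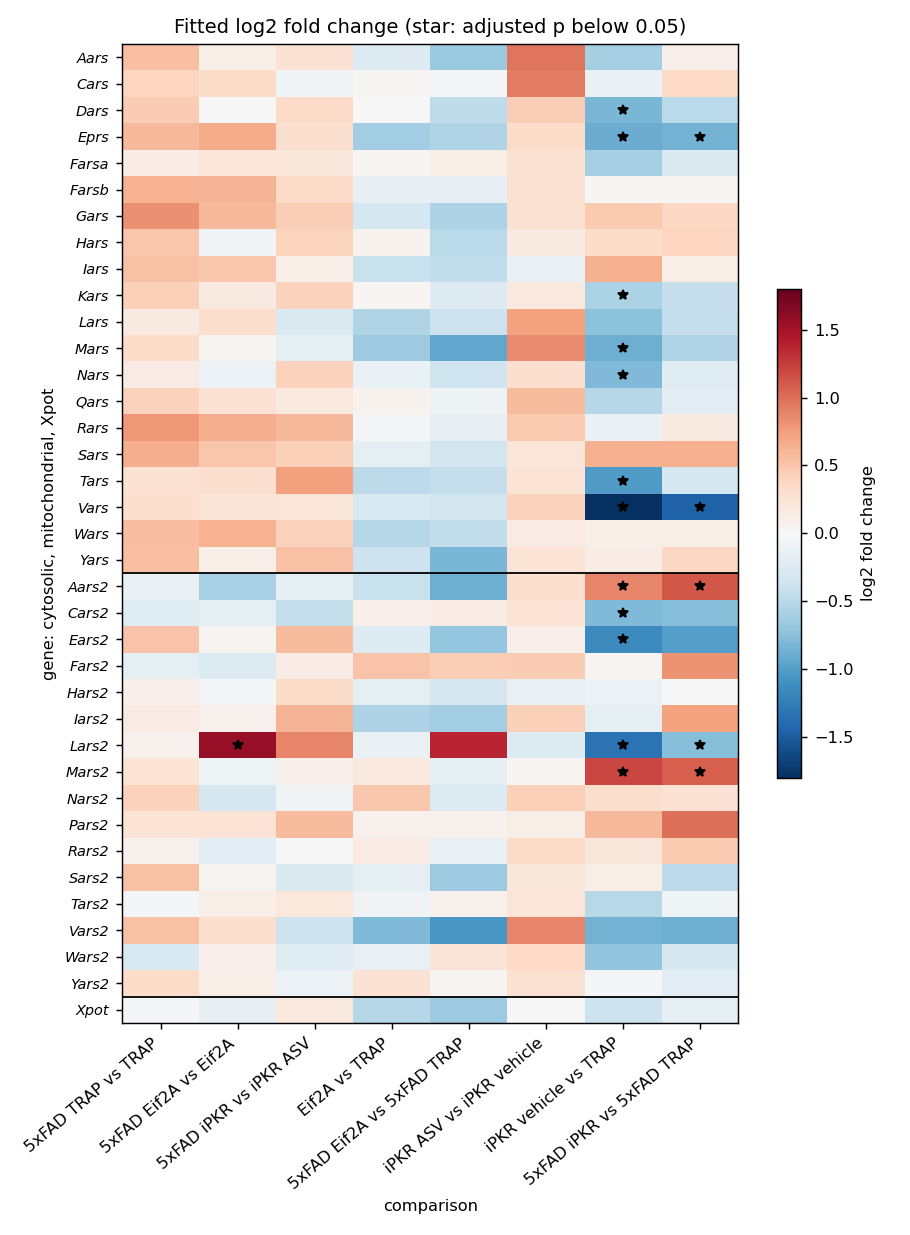
Fitted log2 fold change of the genes (rows; cytosolic, then mitochondrial with 1 gene left out, then Xpot) in the 8 comparisons (columns); the colour scale runs from -1.8 to 1.8 and a star marks an edgeR adjusted p below 0.05. Stars stand at Lars2 in 5xFAD Eif2A against Eif2A, at 12 genes in iPKR vehicle against TRAP and at 5 in 5xFAD iPKR against 5xFAD TRAP.

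Gars, glycyl-tRNA synthetase (chr6:55038007-55079500, + strand), had the largest of these differences. It had 173, 169.85, 113 and 84.6 CPM in the 5xFAD TRAP libraries, against 86.4, 118, 88.6, 117 and 77.7 CPM in the TRAP libraries. The 2 high values were the batch 1 libraries with more neuron marker RNA, and the groups overlapped. The fitted log2 fold change was 0.82 ± 0.29 (SE; edgeR adjusted p = 0.26). Kars, lysyl-tRNA synthetase, had a log2 fold change of 0.43 ± 0.18 (edgeR adjusted p = 0.375) and Farsa, the α subunit of phenylalanyl-tRNA synthetase, the smallest of the cytosolic set, 0.13 ± 0.27. The mitochondrial extremes were Vars2 (valyl) at 0.53 ± 0.70 and Wars2 (tryptophanyl) at -0.28 ± 0.48, neither of which passed.

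When the model was fitted to the 4 groups without iPKR, standard errors were smaller and 6.94% of all genes passed in this comparison. Gars then rose by 0.67 ± 0.15 (edgeR adjusted p = 0.00981), Rars (arginyl) by 0.61 ± 0.13 (0.00984) and Sars (seryl) by 0.56 ± 0.12 (0.00657) on the log2 scale, and no mitochondrial gene passed. Rars had 81.8, 84.9, 61.1 and 53.0 CPM in 5xFAD TRAP, against 49.1, 63.8, 60.2, 56.1 and 34.2 CPM in TRAP. Sars had 201, 206, 136 and 119 CPM in 5xFAD TRAP, against 108, 139, 151, 117 and 107 CPM in TRAP. As with Gars, libraries 1 and 2 of 5xFAD TRAP were the high ones and libraries 3 and 4 lay among the TRAP values. Without the 3 neuron-rich iPKR libraries, only Gars passed, in a fit that called 1.44% of all genes. With only these 2 groups fitted 3 of the 38 passed, near the 6.12% of all genes that did.

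In 5xFAD Eif2A against Eif2A, both of batch 1 alone, 17 of 20 cytosolic fold changes were positive (median 0.28 on the log2 scale) and 9 of 17 mitochondrial ones (median 0.05), beside a median of -0.06 for all genes. Of the 38 genes 1 passed edgeR's test, Lars2, which rose, where 3.1% of all genes did and 2.08% rose. Every 5xFAD Eif2A library lay above every Eif2A library for 5 of 20 cytosolic genes (Eprs, Farsb, Rars, Sars and Wars) and for Lars2, as was so for 11.5% of all genes. Eprs, the fused glutamyl- and prolyl-tRNA synthetase, had 178, 127 and 143 CPM in 5xFAD Eif2A, against 119, 87.7, 82.4 and 101 CPM in Eif2A. Rars had 97.0, 100.9 and 78.8 CPM in 5xFAD Eif2A, against 57.3, 65.1, 53.7 and 63.5 CPM in Eif2A. The groups did not overlap for either gene, but the log2 fold changes of 0.67 ± 0.34 for Eprs (edgeR adjusted p = 0.379) and 0.65 ± 0.30 for Rars (0.304) did not pass in the fit to all libraries.

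In the fit to the 4 groups without iPKR, which called 15.1% of all genes in this comparison, 6 cytosolic synthetases rose in 5xFAD Eif2A. They were Eprs (0.64 on the log2 scale), Farsb, the β subunit of phenylalanyl-tRNA synthetase (0.59), Gars (0.55), Rars (0.63), Sars (0.47) and Wars, tryptophanyl-tRNA synthetase (0.57). Gars, Rars and Sars were thus called in both 5xFAD comparisons of that fit. In both, the share of the 38 genes that was called was near that of all genes, 6.94% and 15.1%. With only 5xFAD Eif2A and Eif2A fitted 7 of the 38 passed, where 12.9% of all genes did. The neuron markers were 0.060 to 0.090% of counts in 5xFAD Eif2A and 0.088 to 0.111% in Eif2A. By fold change 4 of the 11 markers were higher with 5xFAD and 7 lower, with Thy1 the highest at 1.87 on the log2 scale. The part of neuronal RNA in these calls was not tested. At the other end, Nars had a log2 fold change of -0.10 ± 0.28 and Aars2 (mitochondrial alanyl) -0.59 ± 0.37, and neither passed.

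Lars2, mitochondrial leucyl-tRNA synthetase (chr9:123366927-123462666, + strand), had 1980, 1668.5 and 1663 CPM in 5xFAD Eif2A, against 747, 666, 407 and 640.4 CPM in Eif2A. Every 5xFAD Eif2A value was more than 2 times every Eif2A value. The log2 fold change was 1.57 ± 0.31 (edgeR adjusted p = 0.00284), and with each library of the 2 groups left out in turn it ran from 1.43 to 1.68 and passed every time. It was also called by DESeq2 and in the other fits tried. No other mitochondrial gene had a fold change that passed in this comparison.

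In 5xFAD TRAP, Lars2 followed the batch. It had 581 and 498 CPM in the batch 1 libraries and 1520.02 and 1751 CPM in the batch 2 libraries of 5xFAD TRAP, against 429, 566, 742 and 715 CPM in the batch 1 libraries and 1707 CPM in the single batch 2 library of TRAP. Within each batch the 2 groups were close, and the fitted log2 fold change of 5xFAD TRAP over TRAP was 0.08 ± 0.28. In a fit without 5xFAD Eif2A, Lars2 was higher in batch 2 than in batch 1 by 1.03 ± 0.21 on the log2 scale (edgeR adjusted p = 0.00338), and by 1.23 ± 0.21 (0.00344) when the 3 neuron-rich libraries were left out too. The 5xFAD Eif2A libraries, labelled batch 1, therefore had Lars2 levels of the size seen in batch 2 in the TRAP and 5xFAD TRAP groups. Since all libraries of 5xFAD Eif2A and Eif2A are labelled batch 1, the part of the batch in this difference was not tested.

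Against 5xFAD TRAP, Lars2 in 5xFAD Eif2A had a log2 fold change of 1.37 ± 0.33 (edgeR adjusted p = 0.0848) in the fit to all libraries. With batch 1 alone it was 1.61 ± 0.28 (0.0224), in the fit to 4 groups 1.58 ± 0.20 (0.000396, where 4.25% of all genes were called) and without the 3 neuron-rich libraries 1.5 ± 0.29 (0.0159, 0.544% called). DESeq2 also called it. The difference between the 5xFAD effect on the Eif2A background, without drugs, and on the TRAP background, where 5xFAD TRAP had VEGF and ASV, was 1.49 ± 0.42 (edgeR adjusted p = 0.658; 0.00622% of all genes called), and 1.64 ± 0.24 (0.00407; 0.304% called) in the fit to 4 groups. For the other 37 genes that difference was not called in any fit tried, with medians of -0.14 in the cytosolic set, -0.21 in the mitochondrial set and 0.02 over all genes. A stretch of 72 bases of the Lars2 transcript is 98.6% identical to Gm15564, a separate gene of the table, which had 0 to 13 counts in each library, and how reads with several matches were handled is not given in the sources used here.

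**Figure D4:**
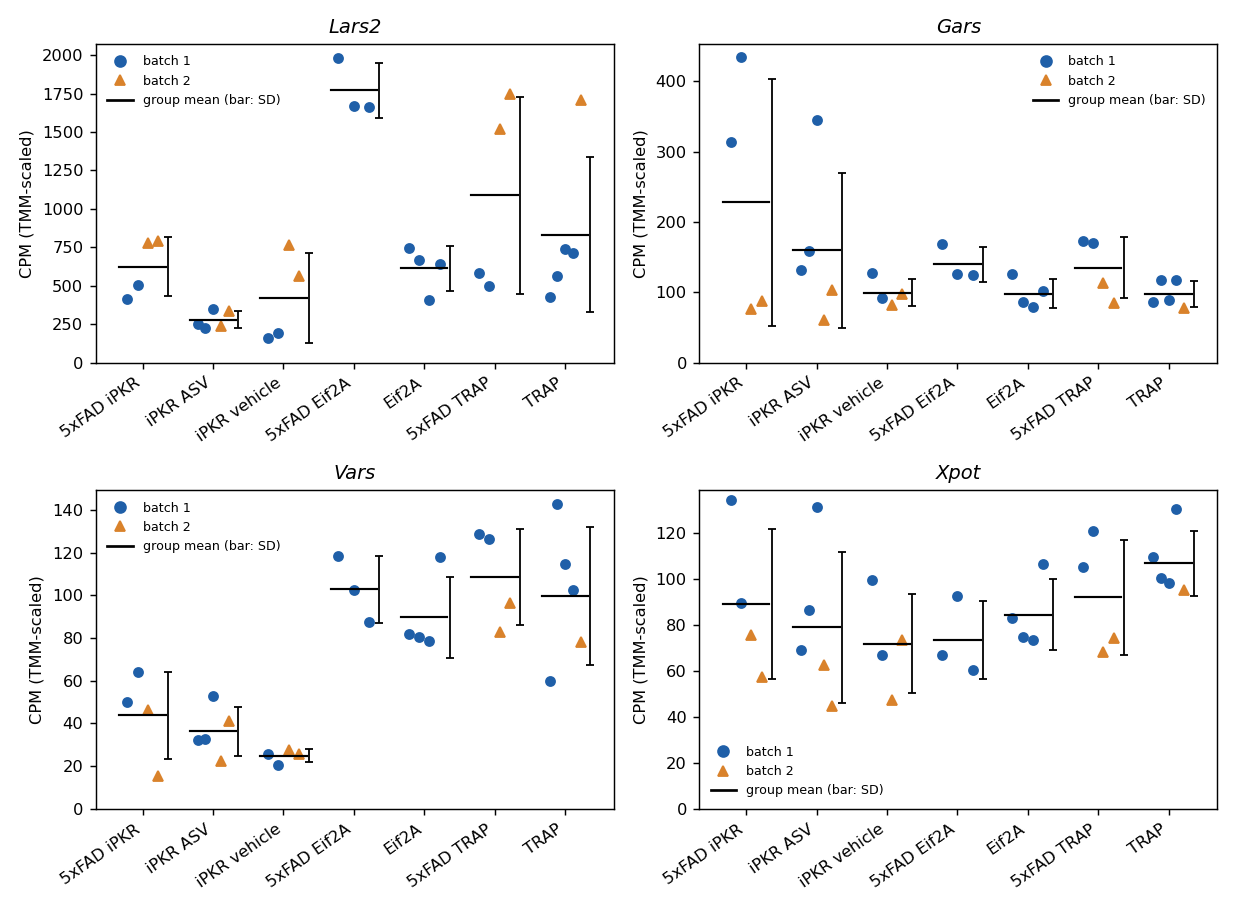
CPM (linear axis from 0) of Lars2, Gars, Vars and Xpot in every library by group; circles are batch 1, triangles batch 2, the line is the group mean and the bar ±1 SD. Lars2 lies at 1663 to 1980 CPM in 5xFAD Eif2A, against 407 to 747 in Eif2A, and Vars at 20.7 to 27.8 CPM in iPKR vehicle, against 59.9 to 143 in TRAP.

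On the iPKR background with ASV, 17 of 20 cytosolic fold changes of 5xFAD iPKR over iPKR ASV were positive (median 0.35 on the log2 scale), with 0.09 for the mitochondrial set and 0.00 for all genes. None of the 38 genes passed edgeR's test, where 1.72% of all genes did; 3 cytosolic genes and 1 mitochondrial gene had an unadjusted p below 0.05, where 13.3% of all genes did, and DESeq2 called Lars2 alone, with 4.33% of all genes. The homeostatic microglial markers moved with this comparison: all 16 had positive fold changes (median 1.23 on the log2 scale, 4 called), and they made up 0.831 ± 0.595% of counts in 5xFAD iPKR (n = 4) and 0.338 ± 0.247% in iPKR ASV (n = 5). Their part in the synthetase values was not tested. Without the 3 neuron-rich libraries, which leave 2 libraries of 5xFAD iPKR and 4 of iPKR ASV, 6 cytosolic fold changes were positive and the median was -0.06. Lars2 had 412, 507, 781 and 792 CPM in 5xFAD iPKR, against 253, 223, 346, 239.9 and 335 CPM in iPKR ASV. All the 5xFAD iPKR values were above the iPKR ASV values, as for 1.54% of all genes, with a log2 fold change of 0.88 ± 0.27 (edgeR adjusted p = 0.104). Without iPKR ASV 3 alone, edgeR called 4 genes higher, Kars, Tars (threonyl), Iars2 (isoleucyl) and Lars2. The share of all genes called in that fit is not given here, so the 4 cannot be set against the whole table. Tars had a log2 fold change of 0.73 ± 0.32 in the fit to all libraries, Lars (leucyl) -0.26 ± 0.36 and Cars2 (cysteinyl) -0.43 ± 0.31.

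The Eif2A allele was compared with the tag alone without 5xFAD, and with 5xFAD, where the TRAP mice alone also had VEGF and ASV. In Eif2A against TRAP, 0 of all genes passed edgeR's test (0%), 912 (5.67%) had an unadjusted p below 0.05, and DESeq2 called 41 (0.255%). None of the 38 genes passed or had an unadjusted p below 0.05 but Xpot, and DESeq2 called 0 of them. Of the cytosolic fold changes, 5 of 20 were positive and the median was -0.19 on the log2 scale, beside -0.12 for the mitochondrial set and 0.00 for all genes; without the 3 neuron-rich libraries the cytosolic median was -0.07. The cytosolic extremes were Mars (methionyl) at -0.65 ± 0.35 and Qars (glutaminyl) at 0.06, and the mitochondrial ones Vars2 at -0.80 ± 0.68 and Fars2 (phenylalanyl) at 0.52 ± 0.32. The fit to 4 groups called 1.97% of all genes and 1 of the 38: Eprs fell by 0.60 on the log2 scale (SE 0.15, edgeR adjusted p = 0.0487). Eprs had 119, 87.7, 82.4 and 101 CPM in Eif2A, against 164, 122, 163, 125 and 96.9 CPM in TRAP. The lowest TRAP value was the batch 2 library.

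The 12 ATF4-linked synthetases had lower median fold changes than the 8 others in both Eif2A comparisons, with overlapping ranges. In Eif2A against TRAP, 11 of the 12 had negative fold changes, with a median of -0.39, and 4 of the 8 others did, with a median of 0.01. The fold changes ran from -0.65 to 0.02 in the 12 and from -0.27 to 0.06 in the 8. In 5xFAD Eif2A against 5xFAD TRAP, 12 of 12 were negative with a median of -0.44 (-0.94 to -0.03), and 7 of the 8 others with a median of -0.19 (-0.49 to 0.12). These are fitted values with batch and sex terms. The mean CPM of 9 of the 12 was higher in 5xFAD Eif2A than in 5xFAD TRAP over all libraries, and that of 0 of the 12 against the batch 1 libraries of 5xFAD TRAP. Without the neuron-rich libraries the ATF4-linked medians were -0.25 and -0.18, with 11 of 12 negative in each, and those of the others 0.08 and -0.09. None of the 20 passed edgeR's test in either comparison.

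The mean log2 CPM of the ATF4-linked genes minus that of the others was 0.09 to 0.28 in the Eif2A libraries (0.18 ± 0.08, n = 4), against 0.34 to 0.55 in TRAP (0.43 ± 0.09, n = 5). It was 0.17 to 0.29 in 5xFAD Eif2A (0.23 ± 0.06, n = 3), against 0.31 to 0.35 in 5xFAD TRAP (0.34 ± 0.02, n = 4). The groups overlapped in neither pair. In the 5xFAD pair the nearest values were 0.29 and 0.31, and 5xFAD TRAP alone had VEGF and ASV. Since the 2 lists were chosen with results of these data known, no test is given. How often other splits of the cytosolic genes would separate these groups was not tested. The same difference was 0.32 to 0.98 in 5xFAD iPKR, 0.43 to 1.05 in iPKR ASV and 0.27 to 0.85 in iPKR vehicle.

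**Figure D5:**
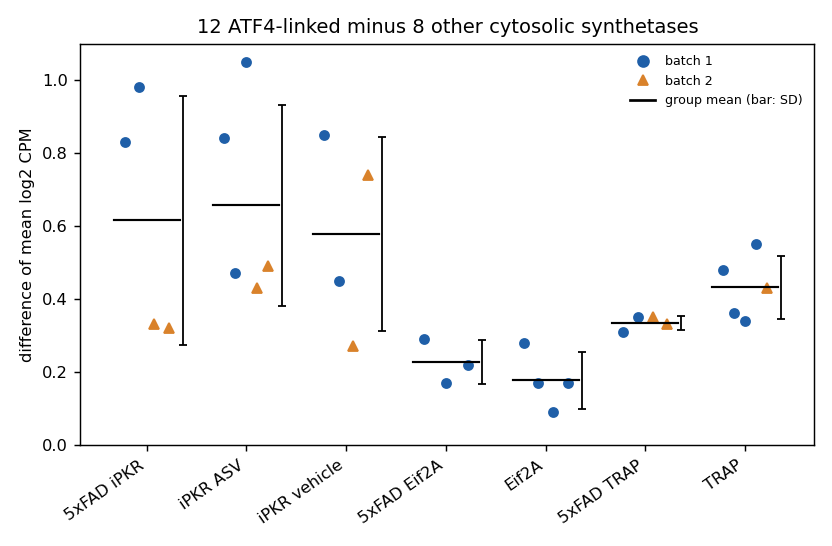
Mean log2 CPM of the 12 ATF4-linked cytosolic synthetases minus that of the other 8 in each library by group; circles are batch 1, triangles batch 2, the line is the group mean and the bar ±1 SD. Eif2A libraries lie at 0.09 to 0.28, below the 0.34 to 0.55 of TRAP, and 5xFAD Eif2A libraries at 0.17 to 0.29, below the 0.31 to 0.35 of 5xFAD TRAP. The lists were chosen with results of these data known, so the separation is a description only.

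In 5xFAD Eif2A against 5xFAD TRAP, 1 of 20 cytosolic fold changes was positive, with a median of -0.41 on the log2 scale, beside -0.16 for the mitochondrial set and 0.03 for all genes. None of the 38 passed edgeR's test, where 0.168% of all genes did; 2 cytosolic genes, 2 mitochondrial genes and Xpot had an unadjusted p below 0.05, where 10.8% of all genes did, and DESeq2 called Lars2, with 1.71% of all genes. The fitted signs, which include the batch and sex terms, differed from those of the group means for 13 of the 20: over all libraries the mean CPM of 14 was higher in 5xFAD Eif2A. The set mean was 6.49 to 6.78 in 5xFAD Eif2A, against 6.75 and 6.85 in the batch 1 libraries and 6.28 and 6.30 in the batch 2 libraries of 5xFAD TRAP, and against batch 1 alone the mean CPM of 2 of the 20 was higher. The direction thus depended on the batch of 5xFAD TRAP, while every 5xFAD Eif2A library is batch 1. With only these 2 groups fitted 4 of the 38 passed, near the 9.06% of all genes that did. The cytosolic median was -0.16 without the neuron-rich libraries. Neuron markers were 0.060 to 0.090% of counts in 5xFAD Eif2A and 0.103 to 0.424% in 5xFAD TRAP, and their part in these values was not tested. Mars had 56.2, 58.9 and 49.4 CPM in 5xFAD Eif2A, against 69.4, 92.1, 71.5 and 68.2 CPM in 5xFAD TRAP. Every 5xFAD Eif2A value was below every 5xFAD TRAP value, as for 5.02% of all genes, and the log2 fold change was -0.94 ± 0.42 (edgeR adjusted p = 0.41). Exons of Mars and of Ddit3, an ATF4 target on the opposite strand, share 68 bases. Gars was one of the 13, with 139.8 ± 24.6 CPM in 5xFAD Eif2A, 135 ± 43.4 CPM in 5xFAD TRAP and a fitted log2 fold change of -0.55 ± 0.34. In Eif2A against TRAP the signs differed for 7 of the 20, among them Gars, which averaged 98.2 ± 20.8 CPM in Eif2A and 97.4 ± 18.5 CPM in TRAP with a fitted log2 fold change of -0.31 ± 0.29. Kars had log2 fold changes of -0.23 ± 0.20 with 5xFAD and 0.04 ± 0.17 without it.

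Xpot (chr10:121587380-121626332, - strand) had 82.8, 74.5, 73.4 and 107 CPM in Eif2A, against 109, 100.3, 98.4, 130.1 and 95 CPM in TRAP. It had 66.9, 92.6 and 60.4 CPM in 5xFAD Eif2A, against 105, 121, 68.1 and 74.0 CPM in 5xFAD TRAP. Most Eif2A values lay below the TRAP values, and the groups overlapped in both pairs. The log2 fold changes were -0.52 ± 0.21 (unadjusted p = 0.0218) without 5xFAD and -0.65 ± 0.25 (unadjusted p = 0.0154, edgeR adjusted p = 0.329) with it, and neither passed. In the remaining comparisons the fold changes of Xpot ran from -0.37 ± 0.21 in iPKR vehicle against TRAP to 0.17 in 5xFAD iPKR against iPKR ASV. Over the 7 group means its log2 level was most like that of Mars (Pearson r = 0.756), Hars2 (histidyl; 0.747) and Nars (0.653), given as a description of 7 points.

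The iPKR construct went with the largest differences in these genes, as in the whole table. In iPKR vehicle against TRAP 12 of the 38 passed edgeR's test, a share of the set below the 54.1% of all genes that passed. Of the cytosolic synthetases 7 fell (Dars, Eprs, Kars, Mars, Nars, Tars and Vars) and 0 rose, where 25.4% of all genes fell and 28.6% rose. Among mitochondrial genes Mars2 and Aars2 rose and Cars2, Ears2 (glutamyl) and Lars2 fell. The cytosolic median was -0.55 on the log2 scale, the mitochondrial one -0.04 and that of all genes 0.17. All iPKR vehicle libraries were below all TRAP libraries for 9 of 20 cytosolic genes and 2 of 17 mitochondrial genes, as for 23.8% of all genes. The homeostatic microglial markers were 0.191 to 0.359% of counts in iPKR vehicle and 2.89 to 4.14% in TRAP, and neuron markers 0.737 to 0.821% and 0.107 to 0.130%; the part of this shift in the gene differences was not tested.

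Vars, valyl-tRNA synthetase (chr17:35000987-35016322, + strand), had the largest difference. It had 25.7, 20.7, 27.8 and 25.8 CPM in iPKR vehicle, against 59.9, 143, 115, 102 and 78.1 CPM in TRAP. The groups were far apart, and it fell by 1.79 on the log2 scale (SE 0.30, edgeR adjusted p = 1.35e-05). Nars had 210.08, 279.00, 210.23 and 222 CPM in iPKR vehicle, against 429, 457, 525, 559 and 416 CPM in TRAP. It fell by 0.79 (SE 0.26, edgeR adjusted p = 0.0115), with no overlap. Tars had 33.5, 23.1, 16.2 and 28.6 CPM in iPKR vehicle, against 54.0, 69.9, 77.0, 75.9 and 57.7 CPM in TRAP. It fell by 1.02 (SE 0.33, edgeR adjusted p = 0.0113), again with no overlap.

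Of the other cytosolic genes that fell, Kars averaged 44.0 ± 5.04 CPM in iPKR vehicle and 74.3 ± 10.6 CPM in TRAP (log2 fold change -0.57 ± 0.18, edgeR adjusted p = 0.00788). Dars, Eprs and Mars had log2 fold changes of -0.82 ± 0.30, -0.89 ± 0.33 and -0.88 ± 0.35. All 3 belong to the multisynthetase complex, in which several cytosolic synthetases are held together. Gars (0.47 ± 0.29), Sars (0.64 ± 0.28, edgeR adjusted p = 0.0522) and Wars (0.10 ± 0.37) did not pass. The fitted signs of Wars, Farsb, Hars and Yars differed from those of their means, which for Wars were 69.4 ± 15.6 CPM in iPKR vehicle and 91.7 ± 12.7 CPM in TRAP.

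Of the mitochondrial genes, Mars2 (chr1:55237177-55248470, + strand) had 24.3, 19.4, 9.25 and 10.3 CPM in iPKR vehicle, against 4.96, 7.59, 3.95, 8.47 and 10.0 CPM in TRAP. The 2 batch 1 libraries of iPKR vehicle were the high ones and the groups overlapped; it rose by 1.2 ± 0.35 on the log2 scale (edgeR adjusted p = 0.00513). Aars2 had 25.1, 31.6, 16.2 and 11.6 CPM in iPKR vehicle, against 10.8, 15.6, 12.9, 8.36 and 11.9 CPM in TRAP, and rose by 0.88 ± 0.32 (edgeR adjusted p = 0.0233). Both are low-level genes. Lars2 had 161, 195, 763 and 565 CPM in iPKR vehicle, where the first 2 libraries are batch 1, and its TRAP values are given above. It was lower within each batch, and fell by 1.33 on the log2 scale (SE 0.29, edgeR adjusted p = 0.00039). Ears2 fell by 1.15 (SE 0.41, edgeR adjusted p = 0.0207) and Cars2 by 0.80 (SE 0.31, 0.0297), with no overlap for either gene.

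Kars, Vars, Lars2 and Mars2 were called with any single library left out, while the other 8 were lost in at least 1 such fit. The count was 5 without iPKR vehicle 2 and at most 15, with no share of all genes given for these fits. It was 17 without the 3 neuron-rich libraries, which are in neither group but share the fit (52.5% of all genes), and 16 with batch 1 alone (54% of all genes). With the replicate number as a block 8 passed (48% of all genes).

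In 5xFAD iPKR against 5xFAD TRAP, both given VEGF and ASV, 6 of the 38 passed, where 47.9% of all genes did. Eprs, Vars and Lars2 fell, and Mars2 and Aars2 were among the 3 that rose, where 23% of all genes fell and 25% rose. The medians were -0.08 in the cytosolic set and 0.01 in the mitochondrial set, beside 0.21 for all genes. With the replicate number as a block, which coincides with batch here, 5 passed (45.2% of all genes): Eprs and Lars2 no longer did and Ears2 did. Without the neuron-rich libraries, which leave 5xFAD iPKR 3 and 4, 8 genes fell and 1 rose (37.6% of all genes called), the cytosolic median was -0.59 and 0 of the 20 fold changes were positive. By batch, the mean CPM of 15 of the 20 cytosolic genes was higher in 5xFAD iPKR in batch 1, which holds the neuron-rich libraries, and that of 1 of the 20 in batch 2. The count was 3 with no filter on low counts (33.6% of all genes), 2 without 5xFAD TRAP 3 and 3 without 5xFAD TRAP 4. The share of all genes is not given for the last 2 fits.

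Vars had 49.9, 63.9, 46.1 and 15.5 CPM in 5xFAD iPKR, against 128, 127, 82.6 and 96.5 CPM in 5xFAD TRAP. Every 5xFAD iPKR value was below every 5xFAD TRAP value, as for 22.1% of all genes, and Vars fell by 1.46 on the log2 scale (SE 0.31, edgeR adjusted p = 0.000309). Aars2 had 27.0, 33.7, 18.3 and 11.3 CPM in 5xFAD iPKR, against 12.01, 10.96, 9.84 and 7.71 CPM in 5xFAD TRAP, and rose by 1.12 ± 0.36 (edgeR adjusted p = 0.0109). These 2 calls held with any single library left out. Mars2 averaged 17.3 ± 7.68 CPM in 5xFAD iPKR and 7.90 ± 2.74 CPM in 5xFAD TRAP (SD, n = 4 each), with a log2 fold change of 1.08 ± 0.40 (edgeR adjusted p = 0.027). Lars2 fell by 0.77 on the log2 scale (SE 0.30, edgeR adjusted p = 0.0349), lying below the 5xFAD TRAP values in batch 2 and overlapping them in batch 1. Of the 8 fits that left out 1 library of these groups, the Mars2 call was lost in 3 and the Lars2 call in 5, with edgeR adjusted p up to 0.104 for Mars2 and 0.105 for Lars2. Eprs had 158, 189, 52.6 and 49.5 CPM in 5xFAD iPKR, against 130.5, 219.7, 148 and 155 CPM in 5xFAD TRAP. The first 2 of the 5xFAD iPKR values are the neuron-rich libraries, and the fitted log2 fold change was -0.85 ± 0.34 (edgeR adjusted p = 0.0405) with them and -1.73 ± 0.32 (0.000152) without them.

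ASV with VEGF, against solvent with VEGF, was compared on iPKR mice. In iPKR ASV against iPKR vehicle 19 of 20 cytosolic fold changes were positive, with a median of 0.29 on the log2 scale, beside 0.24 for the mitochondrial set and 0.01 for all genes. None of the 38 passed edgeR's test, where 0.423% of all genes did; 4 cytosolic and 0 mitochondrial genes had an unadjusted p below 0.05, where 16.4% of all genes did, and DESeq2 called 0, with 3.27% of all genes. The mean CPM was higher in iPKR ASV for 20 of the 20 in batch 1, which holds the neuron-rich library, and for 7 of the 20 in batch 2. With batch 1 alone 2 of the 38 passed (2.07% of all genes). Aars, alanyl-tRNA synthetase, had 166, 156, 810.3, 86.4 and 68.0 CPM in iPKR ASV, against 63.1, 112, 77.8 and 74.2 CPM in iPKR vehicle. The value of 810.3 CPM was the neuron-rich library, and the groups overlapped (log2 fold change 0.96 ± 0.43, edgeR adjusted p = 0.259). Without the 3 neuron-rich libraries 16 of 20 were positive and the median was 0.12. Iars (isoleucyl) had a log2 fold change of -0.12, Vars2 0.88 and Lars2 -0.24 ± 0.28.

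Fold changes of synthetases for the same amino acid were set side by side for the 17 amino acids that have both a cytosolic and a mitochondrial gene here. Eprs was paired both with Ears2 and with Pars2, so those pairs share a fold change. Fars2 was paired with Farsa, and Farsb was left out. The cytosolic gene had the higher fold change in 15 of 17 pairs in 5xFAD TRAP against TRAP, in 13 in 5xFAD Eif2A against Eif2A and in 11 in 5xFAD iPKR against iPKR ASV. It did in 6 of 17 in Eif2A against TRAP, 6 in 5xFAD Eif2A against 5xFAD TRAP, 11 in iPKR ASV against iPKR vehicle, 8 in iPKR vehicle against TRAP and 7 in 5xFAD iPKR against 5xFAD TRAP. Without the 3 neuron-rich libraries the cytosolic gene was the higher in 14 pairs in 5xFAD TRAP against TRAP, in 8 in 5xFAD iPKR against iPKR ASV, in 8 in 5xFAD Eif2A against 5xFAD TRAP, in 10 in iPKR ASV against iPKR vehicle and in 3 in 5xFAD iPKR against 5xFAD TRAP. The comparisons share control libraries and are not independent of each other.

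Genes that work beside the synthetases were counted in the same fits. Of all genes 54.1% were called in iPKR vehicle against TRAP and 47.9% in 5xFAD iPKR against 5xFAD TRAP. The share was 0.79% in 5xFAD TRAP against TRAP, 3.1% in 5xFAD Eif2A against Eif2A and 1.72% in 5xFAD iPKR against iPKR ASV. Of the 8 enzymes of the multisynthetase complex (Dars, Eprs, Iars, Kars, Lars, Mars, Qars and Rars), 4 fell in iPKR vehicle against TRAP (median -0.65) and 1 in 5xFAD iPKR against 5xFAD TRAP (median -0.42), and 0 passed in the other comparisons, where the medians ran from -0.41 to 0.46. Of the 3 scaffold proteins of the complex, Eef1e1 fell by 1.15 and by 1.05 on the log2 scale in those 2 comparisons, and Aimp1 and Aimp2 did not pass in any. Among 11 tested genes for proofreading and related steps of charging, among them the scaffolds, 2 rose and 3 fell in iPKR vehicle against TRAP, 1 rose and 4 fell in 5xFAD iPKR against 5xFAD TRAP, and 0 passed elsewhere. Of 26 tested ATF4 targets that are not synthetases, 1 rose and 1 fell in 5xFAD TRAP against TRAP (median 0.01), 2 rose in 5xFAD Eif2A against Eif2A (median -0.17) and 1 rose in 5xFAD iPKR against iPKR ASV (median 0.33). None of them passed in Eif2A against TRAP (median -0.13), in 5xFAD Eif2A against 5xFAD TRAP (median -0.11) or in iPKR ASV against iPKR vehicle (median 0.01). In iPKR vehicle against TRAP 8 rose and 8 fell (median -0.24), and in 5xFAD iPKR against 5xFAD TRAP 9 rose and 6 fell (median 0.14). In these 2 comparisons the shares of the 26, and those of the 11 charging genes, were near the shares of all genes called. For the effect of 5xFAD on the 3 backgrounds, the share of the 26 was above that of all genes and rested on 1 or 2 genes each. Without the 3 neuron-rich libraries, 5 of the 8 complex enzymes fell in iPKR vehicle against TRAP and 3 in 5xFAD iPKR against 5xFAD TRAP, where 0 of the 11 charging genes rose and 3 fell and 7 of the 26 ATF4 targets rose and 7 fell (median -0.10). Of the ATF4 targets 3 then rose and 1 fell in 5xFAD TRAP against TRAP, 3 rose in 5xFAD Eif2A against Eif2A, 0 passed in 5xFAD iPKR against iPKR ASV, 1 fell in 5xFAD Eif2A against 5xFAD TRAP, and 7 rose and 8 fell in iPKR vehicle against TRAP. The shares of all genes called in that fit were 1.44, 5.2, 4.28, 0.544 and 52.5% in the same order. In 5xFAD iPKR against 5xFAD TRAP the share was 37.6%.

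Exons of 14 of the 38 genes overlap exons of another gene in GENCODE M21, and for Iars2 and Aars, among others, the overlap covers more than 10% of exon bases. Since the strand setting of the counting is not given in the sources used here, reads of these genes and of neighbours on the opposite strand may be mixed. Most of the overlap of Aars is with Exosc6 on the same strand (1326 bases), which a strand setting would not separate.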

How the data were processed

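Counts per gene were deposited by the authors as a raw table of 22327 genes in 29 libraries, one per mouse; the labels name each mouse's sex and batch. Per the submitters' processing notes, Trim Galore, HISAT2 2.2.1 and featureCounts 2.0.3 were used on mm10; the annotation is not given in the sources used here. A second table deposited by the authors holds RPKM values, used only to infer gene lengths: the length was within 0.1% of the whole GENCODE M21 gene span for 34 of 38 genes, so levels per kb were instead computed from the counts and the principal transcript. Libraries were made from polyA RNA with SMART-Seq mRNA LP, without molecular identifiers.

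Counts were tested in R 4.3.3 with edgeR 4.0.16 (quasi-likelihood F-test, two-sided, robust; TMM scaling; filterByExpr with a minimum count of 10 and a minimum total of 15). The design held group, batch and sex over the 29 libraries, leaving 20 residual degrees of freedom, with Benjamini-Hochberg adjustment over 16074 genes and a threshold of 0.05. Each fold change is the first-named group of a comparison over the second. Log2 CPM has a prior count of 2. The test was checked on simulated counts. Alternatives were DESeq2 1.42.0, RLE scaling, no filter, batch 1 alone, other sets of groups, a replicate block, each library left out and, added after seeing the data, fits without the 3 neuron-rich libraries, fits of batch and the signs of mean CPM by batch.

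Same-numbered libraries of 5xFAD iPKR and 5xFAD TRAP deviated together (r = 0.113 to 0.216 over 4 pairs), so the blocked count stands beside that result. These deviations were not adjusted for batch. In both groups libraries 1 and 2 are batch 1 and libraries 3 and 4 batch 2, so pairing and shared batch cannot be told apart. Pairs of other comparisons did not all exceed 0.1. No 2 of 47 within-group pairs were copies.

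The genes and lists were chosen with earlier results of these data known. One mitochondrial gene, which is in all counts and medians, and one promoter sequence are not reported here. In each comparison the text otherwise names the genes that passed, the highest and lowest fold change of each set, Gars, Kars and Xpot; others it names were chosen after their values were seen.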

Additional observations from a re-analysis of the deposited data

Results flagged for a closer look

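A library was listed where its log2 CPM lay far from the rest of its group by Dixon's ratio. This was so for 18 of 246 groups of values, where chance gives about 1 in 20.

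Of the 18, 6 were in cytosolic genes. Dars had 6.82 in Eif2A 2, against 7.34 to 7.43 in the other Eif2A libraries. Farsa had 5.36 in TRAP 2, against 5.61 to 5.67 in the others of TRAP. Mars had 6.53 in 5xFAD TRAP 2, a library with more neuron marker RNA, against 6.10 to 6.17 in the others of 5xFAD TRAP. Vars had 6.89 in Eif2A 4, against 6.30 to 6.36 in the others of Eif2A. In iPKR vehicle 1, Hars had 5.91, against 6.62 to 6.68 in the others of its group, and Sars had 6.81, against 7.33 to 7.38.

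The rest were in mitochondrial genes, most of them at low levels. In iPKR ASV 4, Fars2 had 6.58, against 4.52 to 4.88 in the others of its group, Yars2 had 3.72, against 4.73 to 5.04, and Vars2 had -0.26, against 2.67 to 3.33. In TRAP 2, Ears2 had 4.54, against 3.73 to 3.81 in the others of its group, and Wars2 had 2.99, against 3.72 to 4.00. In iPKR vehicle 4, Nars2 had 4.78, against 3.68 to 3.87 in the others of its group, and Sars2 had 2.75, against 3.19 to 3.23. Aars2 had 2.94 in Eif2A 1, against 3.42 to 3.46 in the others of Eif2A, and Wars2 had 2.23 in 5xFAD iPKR 3, against 3.36 to 3.37 in the others of 5xFAD iPKR. In 5xFAD TRAP, Pars2 had 2.23 in library 3, against 3.26 to 3.41 in the others, Sars2 had 3.16 in library 1, against 3.54 to 3.62, and Yars2 had 4.47 in library 4, against 4.81 to 4.85. The cause of these values was not tested.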

How the results depend on the processing

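No called result changed sign under any alternative; where calls or medians moved, the cause was not tested. In the fit to the 4 groups without iPKR, the genes called were 3 in 5xFAD TRAP against TRAP, 7 in 5xFAD Eif2A against Eif2A, 1 in Eif2A against TRAP, 1 in 5xFAD Eif2A against 5xFAD TRAP and 1 in the difference of the 5xFAD effects. Of all genes 6.94, 15.1, 1.97, 4.25 and 0.304% were called in that order, so 3 and 7 of 38 were near those shares. With only the groups compared the genes called were 3, 7, 0, 4 and 1 in the same order, where 6.12, 12.9, 0, 9.06 and 0.304% of all genes were called, so 3 and 4 of 38 were near those shares. Without the 3 neuron-rich libraries, 1 gene was called in 5xFAD TRAP against TRAP and 1 in 5xFAD Eif2A against 5xFAD TRAP. DESeq2 called 1 in 5xFAD iPKR against iPKR ASV and 1 in 5xFAD Eif2A against 5xFAD TRAP. Batch 1 alone gave 1 in each of these 2 (Rars and Lars2; 3 and 0.158% of all genes) and 2 in iPKR ASV against iPKR vehicle (Rars and Wars; 2.07%). No filter on low counts left 3 in 5xFAD iPKR against 5xFAD TRAP (33.6%).

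The mitochondrial median log2 fold change in 5xFAD TRAP against TRAP was 0.025 in the 4-group fit, 0.022 without the neuron-rich libraries and -0.0083 with the groups compared. In Eif2A against TRAP the cytosolic median was -0.070 with batch 1 alone, -0.070 without the neuron-rich libraries and -0.057 with the groups compared, and the mitochondrial one was -0.037 and -0.032 in the last 2. The cytosolic median of 5xFAD Eif2A against 5xFAD TRAP was -0.17 in the 4-group fit and -0.16 without the neuron-rich libraries. With batch 1 alone the cytosolic median was 0.85 in iPKR ASV against iPKR vehicle and -0.82 in iPKR vehicle against TRAP, where the groups compared gave -0.68; the mitochondrial one there was -0.27 and -0.20. It was 0.33 in 5xFAD iPKR against 5xFAD TRAP with the groups compared.

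With each library left out in turn, the genes called were 0 to 4 in 5xFAD iPKR against iPKR ASV, 5 to 15 in iPKR vehicle against TRAP and 2 to 8 in 5xFAD iPKR against 5xFAD TRAP. The shares of all genes called in these fits are not given here, so the ranges cannot be set against the whole table. The cytosolic median ran from -0.27 to -0.062 in Eif2A against TRAP and from -0.71 to -0.27 in iPKR vehicle against TRAP. The mitochondrial median ran from 0.027 to 0.24 in 5xFAD TRAP against TRAP, from -0.065 to 0.10 in 5xFAD Eif2A against Eif2A, from -0.12 to -0.0043 in Eif2A against TRAP, from -0.31 to -0.088 in 5xFAD Eif2A against 5xFAD TRAP, from -0.18 to 0.14 in iPKR vehicle against TRAP and from -0.27 to -0.014 in the difference of the 5xFAD effects.

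With the replicate number as a block, 8 genes were called in iPKR vehicle against TRAP and 5 in 5xFAD iPKR against 5xFAD TRAP, and the count changed in no other comparison. Batch 2 holds 1 TRAP library and no Eif2A library of either kind, which limits what the batch term can separate. Median standard errors in 5xFAD TRAP against TRAP were 0.30 in the cytosolic and 0.34 in the mitochondrial set on the log2 scale. These are not limits of detection, since larger differences also failed to pass, such as Gars at 0.82. The smallest difference that these libraries could detect was not computed.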
